A study of Homo sapiens with 6 samples.

Results

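The control arm of a nuclear run-on study in SBC-3 cells, a human small cell lung cancer line, comprised 2 of the 6 libraries of the series. Both were chosen by their group label, siCtrl, without use of a measured value, and they are named siCtrl-1 and siCtrl-2. The cells were labelled WT, were reverse transfected with a control siRNA at 10 nM and were permeabilised for the run-on 72 h later. The other libraries of the series received siRNAs against SFPQ, an RNA-binding protein of nuclear paraspeckles, and were not analysed here. Nothing in the labels says that both control libraries came from separate cultures, so the spread between them may be technical. With 1 group of 2 libraries no difference between conditions was tested, and each value is given for both libraries or as a mean ± SD (n = 2).

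Precision run-on sequencing (PRO-seq) lets engaged RNA polymerases add a labelled nucleotide in permeabilised nuclei and sequences the 3′ ends of the nascent RNA, so a read marks where a polymerase was transcribing. RNA polymerase II typically starts at a promoter, pauses a short distance downstream, is released into the gene body by the kinase P-TEFb, and travels past the polyadenylation site before it leaves the DNA. A high promoter signal relative to the body is the usual mark of pausing. Small cell lung cancer is commonly a neuroendocrine tumour and is grouped by lineage regulators, among them NEUROD1, POU2F3 and YAP1.

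The deposited table gave normalized reads for 25827 features after 240 lines with a repeated identifier were dropped. A read was worth 0.797 normalized reads in siCtrl-1 and 1.11 in siCtrl-2, which gave 18475158 and 12072813 reads over the listed features. A feature counted as transcribed when it had at least 10 normalized reads in both libraries, and 20435 features (79.1%) met this. Levels of genes were compared as normalized reads per kb of the gene's RefSeq span in GRCh38.p14, referred to here as per kb, and totals not divided by length are given to show which features took the most reads. The libraries had a Pearson correlation of 0.992 over the transcribed features on the log2(value + 1) scale, and 99.4% of these features lay within 2-fold of each other. A chi-square test of the counts, scaled to its degrees of freedom, gave 10.3 over 22647 features, more than 1 library deposited again under another name would give. It does not show whether the libraries came from separate cultures.

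**Figure D1:**
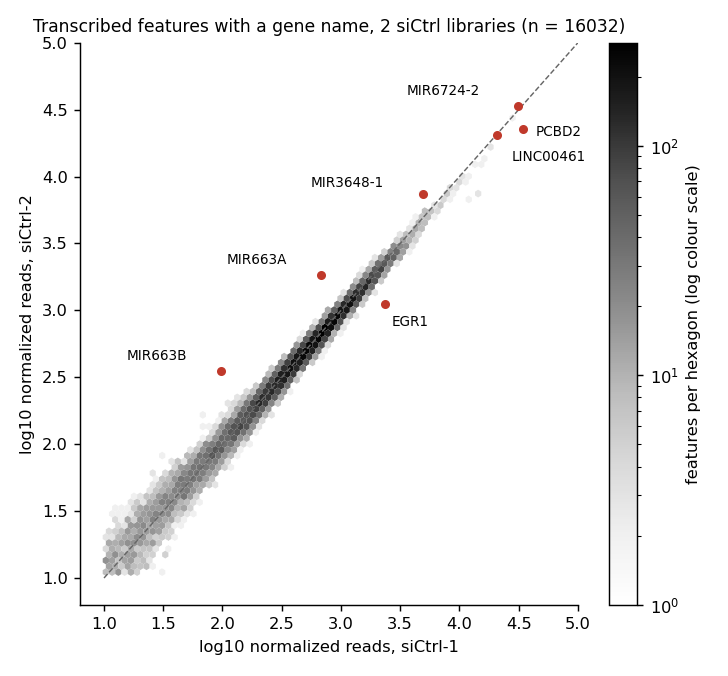
Normalized reads of 16032 named transcribed features in siCtrl-1 (x axis, log10) and siCtrl-2 (y axis, log10), with the number of features per hexagon in grey and equality as a dashed line. MIR663A, MIR663B and MIR3648-1 lie above the line, and EGR1 and PCBD2 lie below it.

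Protein-coding genes made up most of the nascent signal. Of 14173 listed protein-coding features 13761 (97.1%) were transcribed, and they took 71.9 ± 2.77% of the normalized reads. Long non-coding RNAs (lncRNAs) were next, with 4619 of 5699 features transcribed and 22.4 ± 2.64% of the reads. Features annotated as microRNAs, the hairpins from which small regulatory RNAs are cut, took 1.15 ± 0.165%, although 118 of 920 were transcribed. With features at ribosomal RNA units, mitochondrial copies and the 2 largest features of any type left out of the total, the microRNA share was 0.206%. Processed pseudogenes, which are inserted copies of spliced mRNAs, were transcribed in 517 of 1827 cases and took 0.482 ± 0.0606%. Spliceosomal and related small nuclear RNA features were transcribed in 99 of 504 cases, and small nucleolar RNA features in 102 of 407. The table is no census of silent genes: of 10572 protein-coding genes with a body coverage of at least 10 in both libraries in the separate profile files, 326 (3.08%) had no line in it.

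The signal was concentrated in a few features. The largest 2 features, both clone-named lncRNAs without a RefSeq place, took 15.2% of the normalized reads in siCtrl-1 and 10.9% in siCtrl-2. The largest 100 features took 24.4% and 19.4%. Among protein-coding features the largest 2 took 0.834% and 0.589%, and the largest 100 took 9.93% and 9.05%. With the largest 2 features left out of the total, lncRNAs took 10.7% and protein-coding genes 82.7%, as means of both libraries.

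Of the largest named features several lay at ribosomal RNA genes. MIR6724-1 to MIR6724-4 are copies of one microRNA gene on chromosome 21, and MIR6724-2 had 31280.2 and 33507 normalized reads in siCtrl-1 and siCtrl-2 (32394 ± 1574). MIR6724-1 and MIR6724-3 each lie 582 bases before a 45S pre-ribosomal RNA gene (RNA45SN2 and RNA45SN3), and MIR6724-4 lies 601 bases before RNA45SN1. The 45S unit is transcribed by RNA polymerase I into the precursor of the 18S, 5.8S and 28S ribosomal RNAs. MIR3648-1 lies 2485 bases into RNA45SN2, and no such unit was annotated near MIR6724-2. At the features beside or inside a unit, microRNA transcription cannot be told apart from polymerase I signal, and reads of near-identical copies may be split between them. MIR663A, at chr20:26208186-26208278, had 677 and 1842 normalized reads and MIR663B had 96.4 and 352, so siCtrl-2 was 2.72-fold and 3.65-fold above siCtrl-1 for these features. The mature sequences below, from RefSeq (GRCh38.p14) with the seed, bases 2 to 8, in capitals, show what these features would encode. The miR-6724-5p shown lies at chr21:8249515-8249537 (plus strand), miR-663a at chr20:26208243-26208264 (minus strand) and miR-663b at chr2:132256970-132256991 (minus strand). No 2 of them share a seed, and each is rich in G and C.
hsa-miR-6724-5p: cUGGGCCCgcggcgggcgugggg
hsa-miR-663a: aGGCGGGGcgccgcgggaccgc
hsa-miR-663b: gGUGGCCCggccgugccugagg

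Nuclear copies of mitochondrial genes formed a second group that differed between the libraries. The 81 listed features of such copies, of which 55 were transcribed, took 1.34% of the normalized reads in siCtrl-1 and 0.907% in siCtrl-2. Their median ratio of siCtrl-2 to siCtrl-1 was 0.724 (40 features with at least 100 normalized reads), while among 11999 protein-coding features of that level the median was 0.973, with 5% below 0.817 and 5% above 1.199. PCBD2, which encodes a pterin dehydratase (chr5:134905131-134962644), holds 6 such copies inside its span and had 34264 and 22831 normalized reads in siCtrl-1 and siCtrl-2, a ratio of 0.666. Whether reads of this gene came from the copies or from mitochondrial RNA was not tested.

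Among the next largest totals were genes of transcription factors, signalling enzymes and growth factors. PDE10A, a cyclic nucleotide phosphodiesterase, had 27972 and 25777 normalized reads in siCtrl-1 and siCtrl-2. NFIB, a transcription factor often amplified in small cell lung cancer, had 27509.8 and 25953, and BABAM2, a subunit of BRCA1-containing complexes, had 28581 and 24455. PLA2G4A, a cytosolic phospholipase, had 24661 and 19930.0. LMO4, a LIM-only adaptor, had 18937 and 17761, and HMGA2, a chromatin protein of embryonic tissue and tumours, had 18538 and 15715. FGF2, the basic fibroblast growth factor, had 14694 and 12137. For each of these genes siCtrl-1 was above siCtrl-2, with a ratio closer to 1 than the median ratio of the mitochondrial copies. PVT1, the lncRNA gene beside MYC, had 18041 and 15853. The median over transcribed features was 323 normalized reads, with 5% of features below 19.9 and 5% above 1889.5.

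Per kb, genes of the chemokine, cytoskeletal, histone and immediate early groups were among the highest protein-coding genes with a span of at least 1 kb. CXCL1, a neutrophil chemokine at chr4:73869393-73871308, had 1904 ± 184 normalized reads per kb, from 3896 and 3399 normalized reads. NTS, the gene of the peptide neurotensin at chr12:85874295-85882992, had 1316 ± 94.96 per kb. H2BC21, a histone H2B gene with a polyadenylated form, had 1391 ± 10.4 per kb. ACTB, cytoplasmic beta-actin, had 1326 ± 129 per kb, JUNB, an AP-1 subunit, 1374 ± 22.3, and RHOB, a small GTPase, 1183 ± 58.0. CEBPA, a transcription factor of myeloid and liver differentiation, had 1149 ± 93.5 per kb. Among 13324 transcribed protein-coding genes with a span the median was 15.4 per kb and the upper 5% began at 119.7. Because the listed transcript may be shorter than the RefSeq span, a per kb value is a lower estimate where that holds.

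The promoters of CXCL1, NTS and H2BC21 are shown because these genes had some of the highest levels per kb among protein-coding genes with a span of at least 1 kb, and that of FGFR1OP2 because it had one of the highest promoter-to-body ratios below. Each runs from 250 bases before to 50 bases after the RefSeq start in GRCh38.p14. CXCL1 is chr4:73869143-73869442 on the plus strand, NTS is chr12:85874045-85874344 on the plus strand, H2BC21 is chr1:149886633-149886932 on the minus strand, and FGFR1OP2 is chr12:26938220-26938519 on the plus strand. Capitals mark exact letters, on either strand. These are TATAAA (a form of the TATA box), CCAAT (the CCAAT box) and GGGCGG (the GC box). Also marked are CCGGAAG (an ETS motif), CACGTG (an E-box) and TGACGTCA (the cAMP response element). None of these was found in the NTS window. Variants were not searched, so the NTS and CXCL1 windows, in which TATAAA was not found, may still hold a variant TATA box.
CXCL1: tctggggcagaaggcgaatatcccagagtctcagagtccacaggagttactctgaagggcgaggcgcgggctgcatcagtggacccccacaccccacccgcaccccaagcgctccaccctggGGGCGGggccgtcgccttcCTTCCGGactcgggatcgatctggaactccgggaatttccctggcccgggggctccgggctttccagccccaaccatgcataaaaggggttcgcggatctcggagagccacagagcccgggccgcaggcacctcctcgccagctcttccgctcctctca
NTS: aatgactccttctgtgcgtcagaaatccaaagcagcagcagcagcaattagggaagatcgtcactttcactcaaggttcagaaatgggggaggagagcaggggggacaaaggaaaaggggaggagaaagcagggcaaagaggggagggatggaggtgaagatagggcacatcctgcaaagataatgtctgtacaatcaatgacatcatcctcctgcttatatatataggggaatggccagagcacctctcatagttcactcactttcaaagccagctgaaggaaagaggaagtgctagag
H2BC21: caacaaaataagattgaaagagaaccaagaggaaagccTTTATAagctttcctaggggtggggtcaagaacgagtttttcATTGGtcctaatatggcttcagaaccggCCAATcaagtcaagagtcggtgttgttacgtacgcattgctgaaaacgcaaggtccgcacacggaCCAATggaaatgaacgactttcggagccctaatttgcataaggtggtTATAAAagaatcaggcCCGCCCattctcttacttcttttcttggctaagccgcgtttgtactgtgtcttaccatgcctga
FGFR1OP2: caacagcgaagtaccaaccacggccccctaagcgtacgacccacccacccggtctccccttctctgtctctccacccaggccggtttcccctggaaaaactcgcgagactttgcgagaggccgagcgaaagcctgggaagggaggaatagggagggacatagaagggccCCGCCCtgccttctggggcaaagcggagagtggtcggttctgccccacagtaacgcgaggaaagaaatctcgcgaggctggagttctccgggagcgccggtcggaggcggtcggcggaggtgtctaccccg
The GC content was 66.3%, 48.3%, 45% and 64.0% in this order, and the windows held 22, 2, 13 and 26 CG pairs.

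Among the regulators that name small cell lung cancer subtypes, YAP1 stood at the top. YAP1, the transcriptional co-activator of the Hippo pathway, had 3312 and 2856 normalized reads in siCtrl-1 and siCtrl-2, or 25.1 ± 2.62 per kb. POU2F3, the master regulator of tuft cells, had 119 and 129 normalized reads (1.48 ± 0.0828 per kb), and NEUROD1, a basic helix-loop-helix factor of neuroendocrine cells, had 27.1 and 31.0 (2.38 ± 0.227). NKX2-1, the lung lineage factor, had 5.58 and 13.3 and missed the threshold. ATOH1, INSM1 and FOXA2 had no line in the table, and INSM1, a zinc finger factor of neuroendocrine cells, had a body coverage of 0.217 and 0.0831 in the profiles, where the median protein-coding gene had 13.8. In bulk libraries a low level cannot be told apart from a higher level in fewer cells.

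Of the 32 genes fixed as markers of the neuroendocrine state, 14 were transcribed, 1 was listed below the threshold and 17 were not listed. STMN3, a microtubule regulator of neurons, had 45.5 ± 0.297 per kb from 627 and 621 normalized reads. ENO2, the neuron-specific enolase, had 233 and 217 normalized reads, and SYP, the vesicle protein synaptophysin, had 283 and 226. MAP1B, a microtubule-associated protein, had 1786 and 1656. CHGA, the granule protein chromogranin A used in pathology as a neuroendocrine marker, had 3.19 and 4.43 normalized reads, under the threshold in both libraries. DLL3, an inhibitory Notch ligand and drug target in this cancer, had 124 and 129.6, and SCG5, a chaperone of prohormone convertase, had 586 and 525. NCAM1, UCHL1 and GRP were among the members not listed, with body coverages of 0.703 and 0.962, 0.397 and 0.605 and 0.104 and 0.0679. The median per kb of the 14 transcribed members was 7.68, against 15.4 over all transcribed protein-coding genes. Among genes with 1 RefSeq transcript the medians were 20.6 over 3 members and 27.1 over 2180 protein-coding genes.

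Of 30 genes of the non-neuroendocrine state 28 were listed and 27 transcribed, with a median of 31.1 per kb. Of all listed protein-coding features 97.1% were transcribed, so the count among listed members lies near that share, and of the neuroendocrine list 14 of 15 listed members were transcribed. CCN1, a matricellular YAP1 target, had 611 ± 34.0 per kb from 2024 and 1871 normalized reads. CCND1, cyclin D1, had 5305 and 5829 (418 ± 27.8 per kb), HES1, a Notch-responsive repressor, 850.4 and 893 (337 ± 11.6), and MYC 2008 and 2156 (277 ± 13.9). CCN2, the matricellular partner of CCN1, had 687 and 638 (207 ± 10.8), and TGFBR2, a TGF-beta receptor, 9203 and 7917 (97.5 ± 10.4). EPHA2, an ephrin receptor, had 1539.7 and 1505. The exceptions were ANXA1 with 6.38 and 4.43 normalized reads, and CD44 and CAV2, which were not listed and had body coverages of 1.17 and 1.69 and 0.650 and 1.15.

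Lists of other lineages were transcribed in part or hardly at all. Counts here and for the pluripotency genes are over all genes of a list, whether or not they were listed. As a rough base, 13761 protein-coding features were transcribed and the profiles held 19910 protein-coding genes. The count of mesenchymal markers lies near that base. Of 25 mesenchymal markers 17 were transcribed, among them SNAI2, a repressor of epithelial genes, with 899 and 1008 normalized reads (249 ± 20.1 per kb), while TGFBI had 0.797 and 2.22. Of 19 epithelial markers 9 were transcribed, including KRT8, a simple epithelial keratin, with 787 and 887. Tuft cell markers were transcribed in 5 of 11 cases, with AVIL, advillin, at 832 and 1004. Of 23 neural markers 7 were transcribed, among them TUBB3 with 685 and 771. Immune markers were transcribed in 2 of 20 cases, with CD68 at 740.4 and 730.0 and CD8A at 51.8 and 47.6. Erythroid markers were transcribed in 0 of 15 cases and cancer-testis genes in 0 of 21, of which none was listed. A haemoglobin gene, HBA2, had 4.78 and 6.65 normalized reads. Hepatocyte markers were transcribed in 7 of 17 cases, muscle markers in 5 of 18, endothelial markers in 4 of 13 and lung epithelial markers in 3 of 18. APOA1, an apolipoprotein, had 104 and 99.7 normalized reads and HNF4A, a liver and gut nuclear receptor, 314 and 330.1, while APOA2 had 0.797 and 1.11. TP63, a basal epithelial factor, had 2349 and 1599 and ABCA3, a surfactant lipid transporter, 1521 and 1539. ESAM, an endothelial junction protein, had 466 and 469. Absence from the table was not absence of signal: KRT7, a simple epithelial keratin, had a body coverage of 15.6 and 20.7 and GFAP, an astrocyte filament protein, 31.8 and 38.3.

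Of 19 pluripotency and germ line genes 6 were transcribed, and the LIN28 pair led them. LIN28A and LIN28B are RNA-binding proteins that block maturation of the let-7 microRNAs. LIN28A had 1475 and 1511 normalized reads (78.9 ± 1.34 per kb) and LIN28B had 4033 and 3702 (26.4 ± 1.60). SALL4, a zinc finger factor of stem cells, had 404 and 461, and TDGF1 had 141 and 146.

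**Figure D2:**
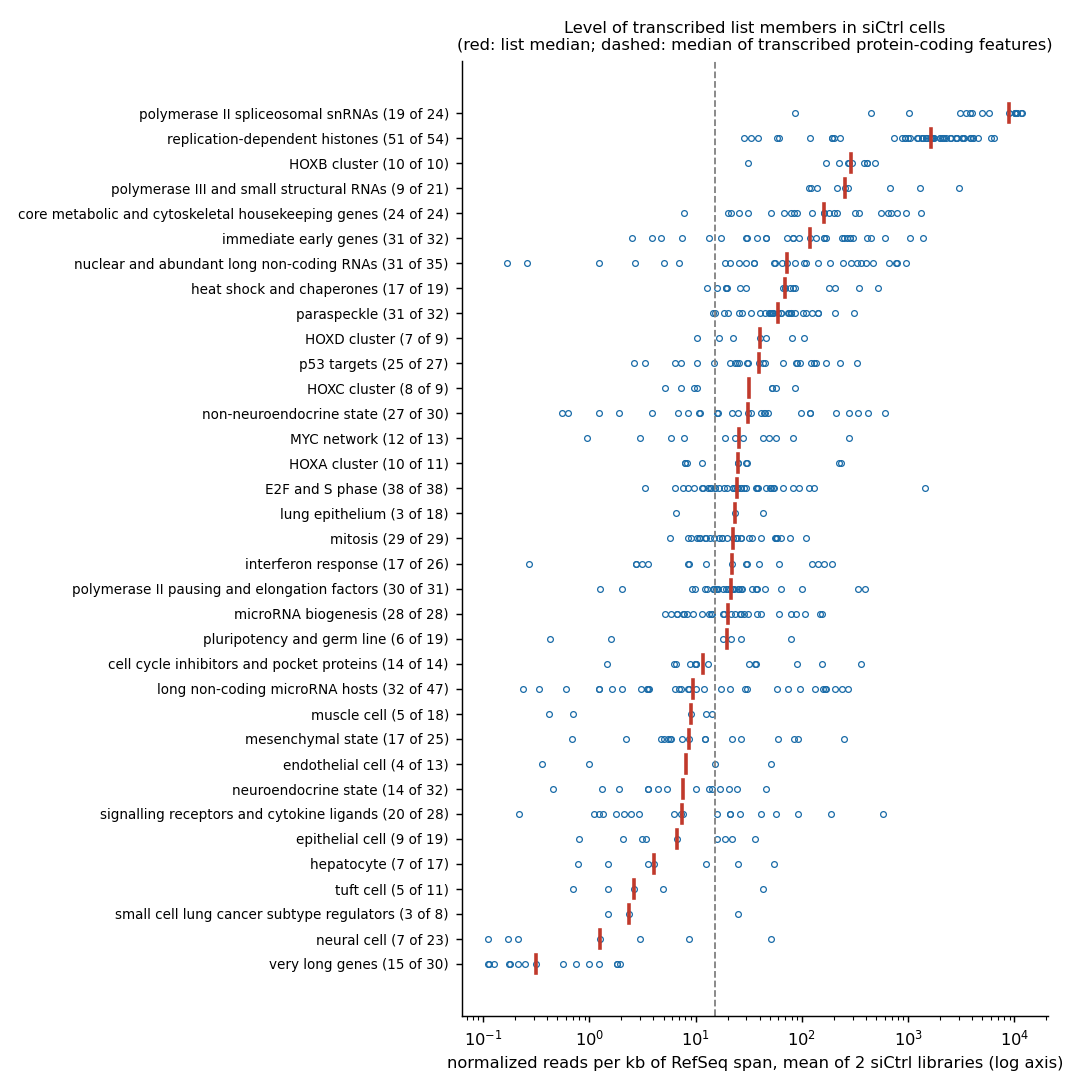
Normalized reads per kb (log axis, mean of the 2 siCtrl libraries) of the transcribed members of each gene list, 1 circle a gene, with the list median in red and the median of 15.4 over transcribed protein-coding genes dashed. Spliceosomal snRNAs and replication-dependent histones have the highest medians, and very long genes the lowest.

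The HOX genes, homeodomain factors that specify position along the body axis, were transcribed at all 4 clusters. The HOXB cluster had the highest median, 287 per kb over 10 of 10 transcribed genes, and the HOXA, HOXC and HOXD clusters had medians of 24.9, 31.5 and 40.4 per kb over 10 of 11, 8 of 9 and 7 of 9 genes. Over genes with 1 RefSeq transcript the HOXC and HOXD medians were 51.6 and 80.7, and that of HOXB was 272.5. HOXB9 had 2347 and 2707 normalized reads (486 ± 49.0 per kb), HOXB4 411 ± 38.1 per kb, HOXB2 406 ± 48.5 and HOXB13 387 ± 53.7. HOXB3 had the most reads, 12232 and 12433, over a span that overlaps its neighbours, so reads of overlapping genes cannot be told apart, and whether the table was counted by strand is not stated. The lowest HOXB gene was HOXB1 with 31.2 ± 0.701 per kb. In the HOXA cluster HOXA11 had 235 ± 24.1 per kb and HOXA10 225 ± 15.2, and HOXC11 and HOXD9 led theirs with 86.5 ± 17.4 and 105 ± 18.5. HOXC5 had 9.56 and 17.7 normalized reads, while HOXA5, HOXD4 and HOXD13 were not listed.

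**Figure D3:**
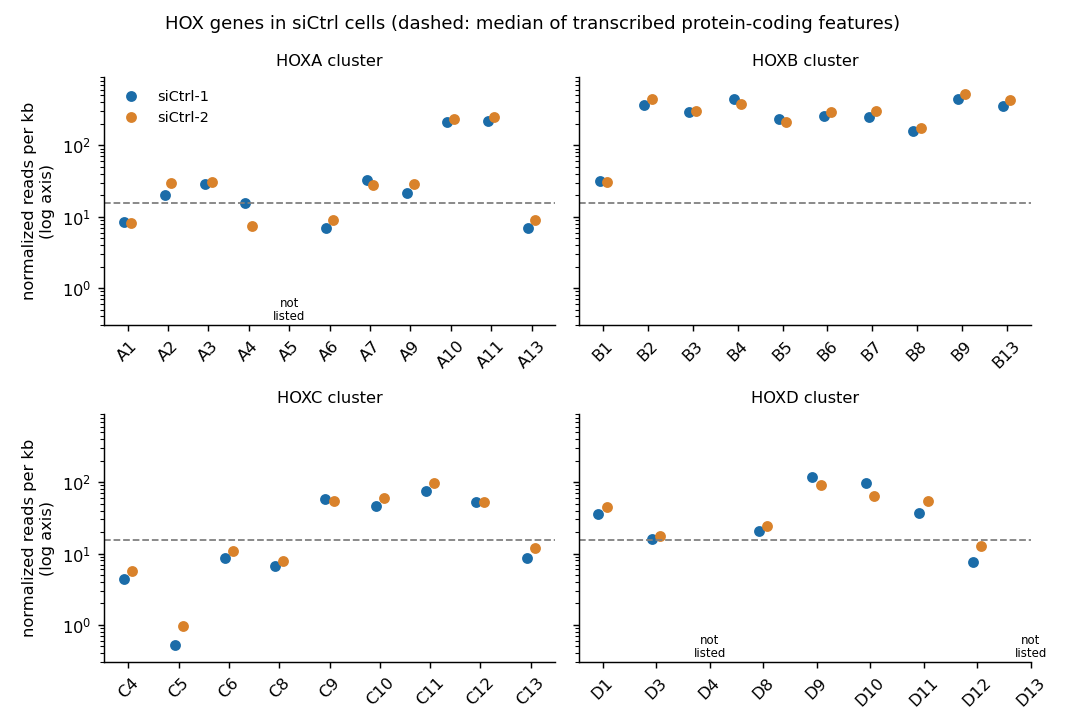
Normalized reads per kb (log axis) of each HOX gene in siCtrl-1 and siCtrl-2 in cluster order, with the median of transcribed protein-coding genes, 15.4, dashed and genes without a line in the table marked as not listed. HOXB genes other than HOXB1, with HOXA10 and HOXA11, lie highest, the libraries lie close at most genes, and HOXA4 is among those where they lie apart.

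Growth and cell cycle genes were transcribed in nearly every case, as were 97.1% of all listed protein-coding features. Of the MYC network 12 of 13 members were transcribed, with MYC at 277 ± 13.9 per kb and MYCL, a small cell lung cancer oncogene, at 48.5 ± 5.87, whereas MYCN had 0.797 and 4.43 normalized reads. MNT and MLX, partners of the MAX network, had 81.7 ± 3.31 and 57.4 ± 9.92 per kb. All 38 genes of the E2F and S phase list and all 29 mitosis genes were transcribed, with medians of 24.7 and 22.7 per kb. For the 4 E2F and S phase genes with 1 RefSeq transcript the median was 55.8. Among these MCM7, a subunit of the replicative helicase, had 130.2 ± 2.47 per kb, E2F1 53.04 ± 0.619 and the mitotic activator CDC20 109 ± 10.0. The 14 cell cycle inhibitors and pocket proteins were all transcribed. CDKN1C had 359.9 ± 47.7 per kb and CDKN1A, the p53-responsive inhibitor p21, 89.6 ± 0.362. RB1, which is commonly lost in small cell lung cancer, had 1242 and 983 normalized reads. Transcription of a gene says nothing of whether its protein is made or mutated. CDKN2A, which encodes p16 and p14ARF, was low with 35.9 and 45.4 normalized reads (1.47 ± 0.245 per kb).

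Stress and signal-responsive lists were transcribed in large part. Counts are again over all genes of a list, beside 13761 transcribed protein-coding features and 19910 profiled protein-coding genes. The counts of interferon response genes and of receptors and ligands lie near that base. Of 32 immediate early genes 31 were transcribed, with a median of 119 per kb, and 262.7 over the 13 with 1 RefSeq transcript. JUND had 1033 ± 26.0 per kb, FOS 268 ± 23.8 and IER2 303 ± 0.714. The libraries lay apart at EGR1, a growth factor-responsive zinc finger factor, with 2335 and 1111 normalized reads in siCtrl-1 and siCtrl-2, and in the other direction at KLF4 with 11.95 and 26.6. EGR2 had 7.17 and 7.75. Of 27 p53 targets 25 were transcribed, led by GADD45A with 327 ± 4.74 per kb and PHLDA3 with 227 ± 2.78. Heat shock genes and chaperones were transcribed in 17 of 19 cases, with HSPA1B at 518 ± 11.5 per kb, HSPA8 at 348 ± 61.8 and HSPA6 at 3.98 and 3.32 normalized reads. Interferon response genes were transcribed in 17 of 26 cases, with RIGI entered under both of its symbols, and with IFIT2 at 193 ± 16.8 per kb and ISG15 at 124 ± 12.3. Of 28 receptors and ligands 20 were transcribed, among them the chemokine CXCL8 with 577 ± 33.5 per kb, while TNF was listed at 0 in both libraries.

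Ribosomal protein and complex I genes were transcribed in every listed case, near the 97.1% of all listed protein-coding features, and olfactory receptor and keratin-associated genes were not. All 84 listed cytosolic ribosomal protein genes were transcribed, with a median of 203 per kb, as were 77 of 77 mitochondrial ribosomal protein genes (40.4 per kb) and 39 of 39 complex I subunits. Zinc finger genes of the ZNF series were transcribed in 434 of 438 cases with a median of 18.6 per kb. Olfactory receptor genes were not in the table, and none of 381 in the profiles reached a body coverage of 10. GAPDH, a glycolytic enzyme, had 554 ± 82.7 per kb and EEF1A1, a translation elongation factor, 685 ± 4.77. Keratin-associated proteins were listed for 12 genes, with 0 transcribed. Very long genes were transcribed in 15 of 30 cases with a median of 0.312 per kb, and CTNNA3, an alpha-catenin, led them per kb with 1.95 ± 0.228 from 3916 and 3319 normalized reads. Not divided by length, the median of the transcribed very long genes was 592 normalized reads, against 486 over transcribed protein-coding features. HSPE1, a mitochondrial chaperone, was not listed although its body coverage was 196 and 231.

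RNA-processing genes and noncoding RNA genes were also covered. Of all listed features, 97.1% of protein-coding, 81.0% of lncRNA and 19.6% of small nuclear RNA features were transcribed. The list counts below are over all genes of a list, whether or not they were listed. SFPQ, the gene targeted in the other libraries, had 2294 and 2435 normalized reads in siCtrl-1 and siCtrl-2 (141 ± 5.92 per kb), and its partners NONO and PSPC1 had 857 and 887 and 1699 and 1581. NEAT1 had 1875 and 2019 and MALAT1, an abundant nuclear lncRNA, 759.5 and 1066. DROSHA and DGCR8, which cut primary microRNAs in the nucleus, had 1068 and 980.4 and 1313 and 1268, and DICER1 had 940.4 and 977. The paraspeckle list, which holds the proteins and the NEAT1 RNA of these nuclear bodies, was transcribed in 31 of 32 cases (median 59.5 per kb), and microRNA biogenesis in 28 of 28 (20.1). Polymerase II pausing and elongation factors were transcribed in 30 of 31 cases, with HEXIM1, an inhibitor of P-TEFb, at 391.7 ± 61.8 per kb and MEPCE at 336 ± 6.26. The spliceosomal snRNA genes of polymerase II were transcribed in 19 of 24 cases with a median of 8907 per kb, although reads of near-identical copies of these and of histone genes may be split between them. Replication-dependent histones, whose mRNAs end in a stem-loop and not a poly(A) tail, were transcribed in 51 of 54 cases with a median of 1644 per kb, led by H4C11 at 6429 ± 594. RPPH1, the RNA of ribonuclease P made by polymerase III, had 3026 ± 305 per kb. Genes of this size span few bases, so their per kb values rest on a short stretch and on any signal of a flanking gene. Y RNAs made by polymerase III were at the bottom, with RNY1 at 0 and 2.22 normalized reads, and RN7SK, the RNA scaffold of the P-TEFb inhibitor complex, had 53.4 and 23.3.

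Per kb, the lncRNA hosts of snoRNAs stood above most lncRNAs, and those of microRNAs did not. All 27 listed SNHG hosts were transcribed, with a median of 129.7 per kb, against 13.7 over transcribed lncRNAs with a RefSeq span (1362) and 9.38 over the 32 of 47 microRNA hosts that were transcribed. The order of microRNA hosts depended on division by length. Not divided by length, the medians were 829 normalized reads for SNHG hosts, 502 for the transcribed microRNA hosts and 106 over all 4619 transcribed lncRNAs. Highest of the SNHG hosts named in the lists were SNHG7 with 953 ± 80.3 per kb and SNHG3 with 791 ± 5.11. MIR17HG, the host of the miR-17-92 cluster, had 236 ± 27.5 per kb. LINC00461, at chr5:88538266-88691041, had 20661 and 20279 normalized reads and contains the hairpin MIR9-2 of a brain-enriched microRNA. MIR9-2 itself had 35.9 and 43.2. Its mature forms, at chr5:88666902-88666924 (minus strand) and chr5:88666866-88666887 (minus strand), are shown with seeds in capitals because the host had the most normalized reads of the named lncRNAs.
hsa-miR-9-5p: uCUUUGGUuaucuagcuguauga
hsa-miR-9-3p: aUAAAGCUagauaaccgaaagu

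Many transcribed microRNA features lay inside another gene or near its start. Of the 118 transcribed microRNA features 113 had a RefSeq place. At least 81 (71.7%) lay inside another gene and at least 43 (38.1%) within 1 kb of a gene start. Both shares are lower bounds. Some features with a host named above, such as MIR9-2 in LINC00461 and MIR17 in MIR17HG, were not counted as inside a gene. For some others, such as MIR320A, no nearest start was found, and these counted as not near one. Neither share was computed over the microRNA features that were not transcribed, so neither is given as particular to transcribed ones. MIR3615 starts 28 bases from the start of NHERF1 and had 658 and 559 normalized reads, and MIR3652 lies 80 bases from the start of HSP90B1 and had 453 and 392.2. MIR484 lies 49 bases from the start of NDE1 and had 137 and 119.6. The value of such a feature includes any polymerase paused at that start. MIRLET7I, a let-7 gene, had 59.8 and 75.3 normalized reads. Mature sequences of these are shown, seeds in capitals, to mark the stretch that such a value is assigned to, with miR-3615 at chr17:74748663-74748683 (plus strand), miR-3652 at chr12:103930425-103930442 (plus strand), miR-484 at chr16:15643301-15643322 (plus strand) and let-7i-5p at chr12:62603691-62603712 (plus strand). They do not share a seed.
hsa-miR-3615: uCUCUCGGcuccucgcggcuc
hsa-miR-3652: cGGCUGGAggugugagga
hsa-miR-484: uCAGGCUCaguccccucccgau
hsa-let-7i-5p: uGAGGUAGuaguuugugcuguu

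Along the genome, the level per kb differed between chromosomes and windows. The level per kb also went with gene length. Among transcribed protein-coding genes of at least 3 kb with 1 RefSeq transcript, the lowest of 5 equal groups by level had a median span of 36.5 kb. The highest group had 5.85 kb. Whether the differences along the genome go with gene length was not tested. The median over transcribed protein-coding genes ran from 8.64 per kb on chromosome X and 8.86 on chromosome 18 to 22.2 on chromosome 19. Of 289 windows of 10 Mb with at least 10 such genes, the highest was 20 to 30 Mb of chromosome 6, which holds the large histone cluster, with a median of 119 per kb over 89 genes. The next was 140 to 150 Mb of chromosome 8 with 55.4 over 82 genes, and the lowest was 130 to 140 Mb of chromosome 8 with 2.59 over 10 genes.

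The shape of transcription along genes was read from separate coverage profiles of 500 bins, with 100 bins before the start, 300 along the gene and 100 after the end. The outer bins were taken as 10 bases each, since the distance to a downstream start in 116 tandem gene pairs gave a median of 9.25 bases per bin. The promoter window was the last bin before the start and the first 3 bins of the gene, and the body was the remaining 297 bins. Protein-coding genes were kept when their body coverage was at least 15.9 in siCtrl-1 and 16.2 in siCtrl-2, which left 8890 of 18151 genes with any signal. Coverage grew with the number of annotated transcripts of a gene: its median ratio to normalized reads per kb was 0.869 in siCtrl-1 over 2203 genes with 1 RefSeq transcript and 5.29 over 1396 genes with at least 20. Gene groups were therefore compared by ratios within a gene, and coverage itself is given only as a coarse mark of signal in genes the table does not list and to sort genes by whether their body was covered.

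In both libraries coverage peaked at the first bin of the gene. The mean peak was 2031 in siCtrl-1 and 1900 in siCtrl-2, against mean body coverages of 102 and 109. The median promoter-to-body ratio over 8890 genes was 12.4 and 11.3 (11.9 ± 0.834). A ratio of at least 1 in both libraries was seen in 96.7% of genes, at least 10 in 52.9%, at least 50 in 287 genes and at least 100 in 28. The ratios of single genes had a Pearson correlation of 0.972 between the libraries on the log2 scale, over 8866 genes with a value in both. In genes with 1 RefSeq transcript the median was 10.1.

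**Figure D4:**
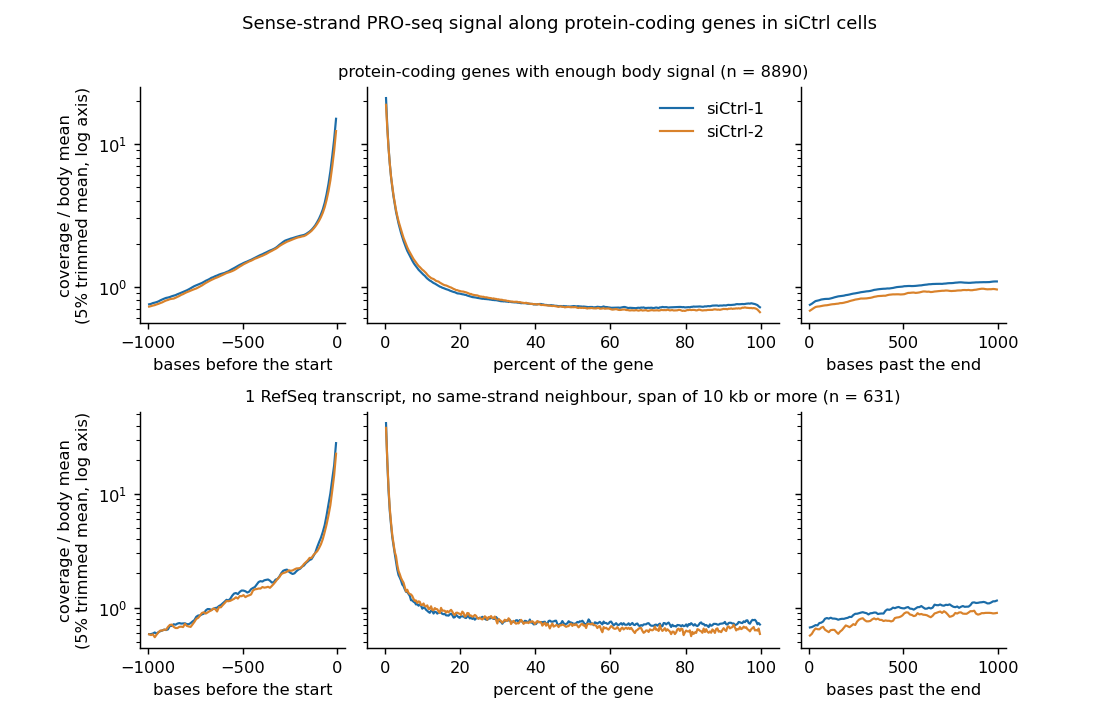
Trimmed mean of coverage divided by each gene's body mean (log axis) over the 1000 bases before the start, along the gene in percent of its length and over the 1000 bases past the end, in siCtrl-1 and siCtrl-2. The upper row holds 8890 protein-coding genes and the lower row 631 genes of at least 10 kb with 1 RefSeq transcript and no same-strand neighbour within 5 kb. Both libraries peak at the start, at 20.9 and 18.7 times the body mean in the upper row and 42.0 and 38.1 in the lower, and end near the body mean.

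The most promoter-weighted genes differed in how much signal their body held. AZIN2, a regulator of polyamine synthesis, had promoter-to-body ratios of 308 and 283 in siCtrl-1 and siCtrl-2, the highest of 6548 ranked genes of at least 10 kb, with a body coverage of 65.8 and 76.2. FGFR1OP2, whose promoter is printed above, had a lower body coverage, 18.8 and 20.47, and ratios of 138 and 141. ME2, a mitochondrial malic enzyme, had 125 and 142, ACER3, a ceramidase, 145 and 133 and NDUFAF1, a complex I assembly factor, 134 and 133. RNF19B had 121 and 123, with an upstream-to-body ratio of 50.4 and 51.4. At the other end PTPRN, ALDH3A1 and PRRG2 had 0 coverage in the promoter window while the body was covered, at 135 and 84.8 for ALDH3A1.

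Promoter weight varied by gene group. Zinc finger genes had median ratios of 18.5 and 16.3 in siCtrl-1 and siCtrl-2 over 305 genes, and complex I subunits 16.2 and 13.9 over 35. The p53 targets and the immediate early genes were above the median of all genes, with 15.4 and 14.5 over 20 and 15.3 and 14.1 over 25. Cytosolic ribosomal protein genes had 10.0 and 8.17 over 83. Interferon response genes had 2.66 and 2.38 over 13, and the HOXB cluster 1.26 and 1.07 over 9. Replication-dependent histones had 1.39 and 1.05 over 46. With a median span of 0.49 kb, the first 3 of their 300 gene bins cover only a few bases. Their promoter window therefore reaches less far into the gene than in longer genes. The 7 neuroendocrine genes with enough signal, of 30 profiled, had past-end ratios of 1.75 and 1.202, and the 5 such HOXA genes 1.496 and 1.473.

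**Figure D5:**
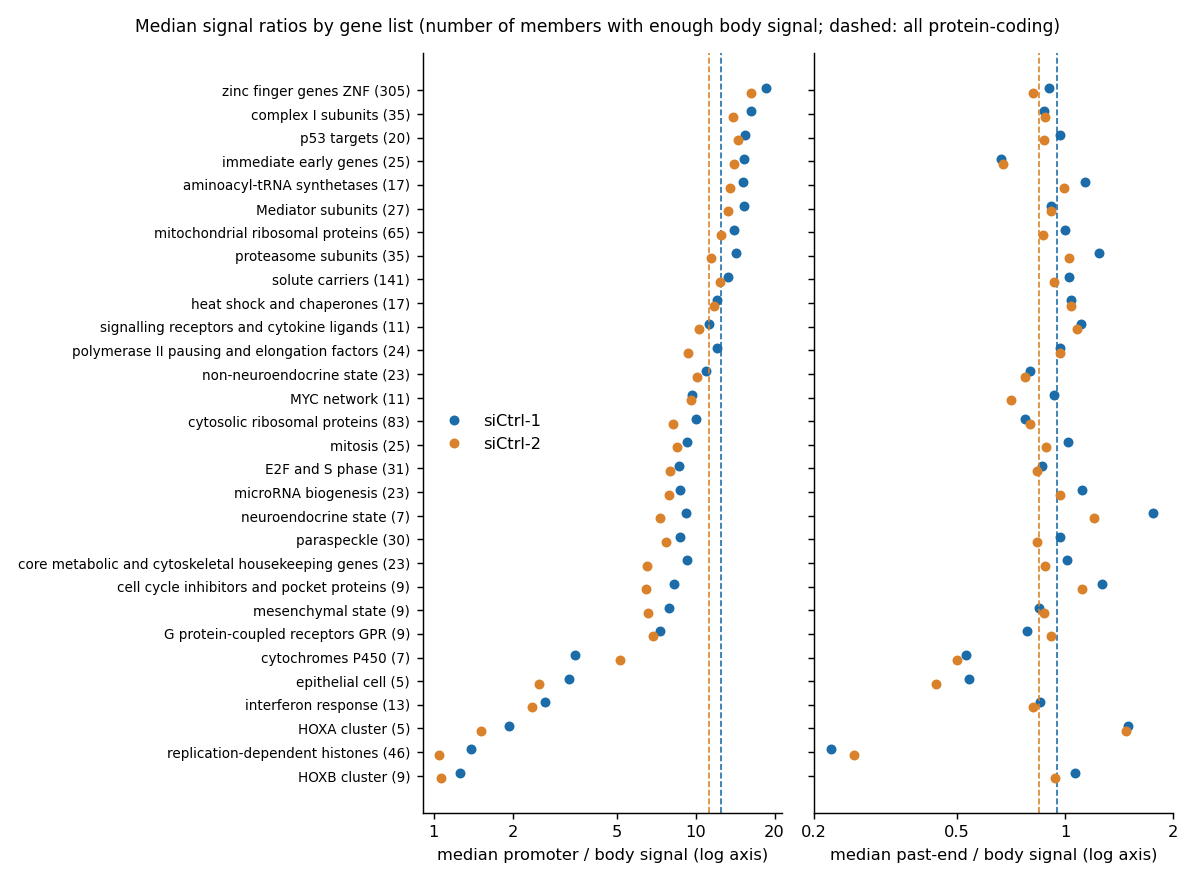
Median ratio of promoter to body signal (left, log axis) and of past-end to body signal (right, log axis) of each gene list in siCtrl-1 and siCtrl-2, with the number of genes in brackets and the median of all protein-coding genes dashed. Of the lists drawn, which hold at least 5 genes, zinc finger genes have the highest promoter ratio in both libraries, and HOXB genes and histones have the lowest.

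Promoter weight also varied with gene length. Over genes with enough signal the median ratio was 5.67 and 4.59 at 1 to 3 kb (424 genes), 10.1 and 8.02 at 3 to 10 kb (1702), 15.5 and 14.9 at 30 to 100 kb (2657) and 6.71 and 6.94 above 300 kb (156). A fixed number of bins spans more bases in a long gene. With the first 1 kb set against the rest of the gene, in 809 genes with 1 transcript and no same-strand neighbour within 5 kb, the median was 9.22 and 9.01, and it was 6.72 and 5.99 for genes of 5 to 10 kb and 13.4 and 14.6 for genes of 100 to 300 kb.

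Promoter letters are given as a description, with the share over all promoters beside them. TATAAA was found within 250 bases before to 50 after the start in 5.69% of 10868 transcribed protein-coding promoters and in 19.9% of 3810 promoters of genes with body coverage under 1, against 11.95% of all 27305 promoters. Of 49 histone promoters 65.3% held TATAAA and 87.8% held CCAAT, which was found in 35.7% of all promoters. The GC box letters GGGCGG were found in 64.5% of promoters in the lowest of 5 equal groups by promoter-to-body ratio and 77.5% in the highest, and CCGGAAG in 11.7% and 26.8%. Letters were searched on both strands, and a match is a description and no evidence of binding.

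Signal carried on past the annotated end. The median ratio of the 1 kb past the end to the body was 0.948 and 0.848 (0.898 ± 0.0712) over the 8890 genes, and 34.5% had at least 1 in both libraries. It was 0.6996 in genes with 1 transcript and no same-strand neighbour within 5 kb. Neighbours were sought only among genes whose strand was given, so a downstream start of another gene may remain in this set. Of the 10 highest ratios 7 had a same-strand gene that starts 31 to 792 bases beyond the end, and the strand of the other 3 is not given in the annotation used. SIRT5, a mitochondrial desuccinylase, had 24.7 and 26.4 in siCtrl-1 and siCtrl-2, and NOL7 starts 177 bases beyond it. AARS1 had 19.7 and 19.03 with EXOSC6 358 bases on, and AGO1 18.5 and 19.1 with AGO3 186 bases on. Among the lowest were PCBD2 (0.00939 and 0.0155) and HFM1 (0.00866 and 0.0177). Their body coverages were high and lower in siCtrl-2, at 626 and 435 for PCBD2 and 758 and 388 for HFM1. PCBD2 holds copies of mitochondrial genes, and the source of these body reads was not tested.

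Upstream signal on the gene's strand reached a median of 1.377 and 1.291 times the body (1.33 ± 0.0607), and 0.698 in genes with 1 transcript and no same-strand neighbour within 5 kb. With the body cut into 4 equal parts, the last had 0.527 and 0.462 times the signal of the first (0.494 ± 0.0460), and 0.357 in genes with 1 transcript. The 1725 lncRNAs with enough signal had median promoter-to-body ratios of 2.77 and 2.43 and past-end ratios of 0.350 and 0.332, below those of protein-coding genes in both libraries. Processed pseudogenes had promoter-to-body ratios of 1.02 and 0.953 over 131 genes.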

How the data were processed

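The deposited table held normalized reads per feature of the 2 siCtrl libraries (a signal unit, in columns named by sample per the file headers). Its values were whole reads multiplied by 1 factor per library, with 100% of values whole within 0.1 read, and gave 18475158 and 12072813 reads. The deposited profile files held coverage signal over 500 bins per gene for the same libraries, on the gene's own strand. The submitters' processing notes name cutadapt 1.14, SAMtools 1.3.1, DESeq2 1.38.1, Bowtie2 and UMI-tools, and the builds hg38 and dm6. How the factors and the profile scaling were obtained is not stated there.

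Repeated identifiers were dropped and features were matched to RefSeq GRCh38.p14 (18746 by symbol, 435 by synonym, 6 by accession, 6640 unmatched). Levels compared between genes were divided by the gene's span, and totals were not. A feature counted as transcribed at 10 normalized reads in both libraries. Named genes were list members, the largest features and the extremes of the profile ratios. No difference between conditions was tested. The libraries, lists and members were chosen with earlier results of these data known, and the alternatives by RefSeq transcript number, same-strand neighbours and ribosomal features were chosen after seeing the data. Some features are not reported here. Genes with profiles at 0 throughout were left out of the ratios. Python 3.11.15, NumPy 2.4.6, pandas 2.3.3 and Matplotlib 3.10.9 were used, and the code was tested on simulated data. The number of table columns without a mapped sample was 0.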

Additional observations from a re-analysis of the deposited data

How the results depend on the processing

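Leaving out either library, transcribed features numbered 20864 to 20871 (20435 with both), protein-coding features took 69.9 to 73.8% of normalized reads, lncRNAs 20.505 to 24.2% and microRNAs 1.04 to 1.27%. The largest 2 features took 10.9 to 15.2% and the largest 100 19.4 to 24.4%. The median promoter-to-body ratio was 11.3 to 12.4, the past-end ratio 0.848 to 0.948, the upstream ratio 1.291 to 1.377 and the ratio of the last to the first of 4 body parts 0.462 to 0.527.

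Thresholds of 1 and 50 normalized reads gave 24188 and 16802 transcribed features. Without the largest 2 features protein-coding genes took 82.7%, lncRNAs 10.7% and microRNAs 1.32%. Without those 2 and the ribosomal unit and mitochondrial copy features, these shares were 84.9%, 11.002% and 0.206%. Within protein-coding features the largest 2 took 0.711% and the largest 100 9.49%. The promoter ratio of 11.9 became 7.39 with 5 bins before and 10 bins of the gene, 8.64 over all genes with body signal, 9.24 in the upper 25% by body signal, 12.7 from 1 profile file alone, and 10.1 in genes with 1 RefSeq transcript. The past-end ratio of 0.898 became 0.759 in its first 25 bins, 0.739 with 1 transcript and 0.6996 when those also had no same-strand neighbour. The upstream ratio of 1.33 became 0.749 in its first 50 bins, 0.831 with 1 transcript and 0.698 with both conditions. The body part ratio of 0.494 became 0.554 with 3 parts and 0.357 with 1 transcript.

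At a threshold of 50, tuft markers transcribed numbered 3, immune 1, muscle 2, HOXA 5 and polymerase III RNAs 4, and at 0.5 per kb neural markers numbered 4 and very long genes 7. With members of 1 RefSeq transcript only, list medians per kb were 20.6 for neuroendocrine, 38.0 for non-neuroendocrine, 55.3 for mesenchymal, 12.4 for hepatocyte, 272.5 for HOXB, 51.6 for HOXC, 80.7 for HOXD, 55.8 for E2F, 25.6 for p53, 262.7 for immediate early, 73.3 for heat shock, 162.5 for interferon, 5.00 for microRNA host, 18.9 for nuclear lncRNA, 7305 for snRNA, 1722 for histone, 481.6 for housekeeping and 67.3 for pausing genes. These subsets hold fewer genes, and the cause of the other shifts was not tested. No paired analysis was possible because there is 1 group of 2 libraries.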

Other observations

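Further families were covered beyond the comparisons above. Of all listed features, 97.1% of protein-coding, 81.0% of lncRNA and 25.1% of snoRNA features were transcribed. The shares of solute carriers, Mediator subunits, LINC transcripts and C/D box snoRNAs below lie near these. Taste receptors of type 2, bitter-sensing receptors, were transcribed in 7 of 9 listed cases with a median of 17.7 normalized reads per kb. That median rests on few reads, since their median total was far below that of all transcribed features. None of these receptors in the profiles reached a body coverage of 10. Protocadherins were transcribed in 26 of 30 listed cases with a median of 7.07 per kb. Solute carriers were transcribed in 245 of 251 cases with a median of 11.3 per kb, and Mediator subunits in 30 of 30 with 21.8. Transcripts named LINC were transcribed in 430 of 510 listed cases with a median of 8.68 per kb, antisense-named transcripts in 593 of 633 with 16.4, and divergent-named transcripts in 104 of 115 with 16.6. C/D box snoRNAs, which guide RNA methylation, were transcribed in 47 of 169 listed cases, and H/ACA box snoRNAs, which guide pseudouridylation, in 49 of 127.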
